A study of Mus musculus with 8 samples.

Results

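Plasma membrane calcium pumps and exchangers were followed in sensory neurons of mouse dorsal root ganglia through 8 genes, out of 43372 gene symbols in the count table. The 8 were the rows whose symbol equalled Atp2b1, Atp2b2, Atp2b3, Atp2b4, Atp2a2, Slc8a1, Slc8a2 or Slc8a3. The family was selected on measured values of these same libraries, with the difference between the 2 genotypes in view, so the values of that difference are given as a description and its p-values add no independent evidence. Of the 8, 7 passed the filter on low counts and Slc8a2 did not. Atp2a2 sits apart from the family name, because the SERCA2 pump that it encodes lies in the endoplasmic reticulum and not in the plasma membrane.

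The study compared RNA from hand-picked neurons of Sst-IRES-Cre mice (allele Ssttm2.1(cre)Zjh/J) and Trpv1-IRES-Cre mice (allele Trpv1tm1(cre)Bbm/J), with 4 libraries of each, called Sst and Trpv1 below. All mice were C57Bl/6. At postnatal day 2 all received an intraperitoneal injection of a Cre-dependent virus, either AAV9-CAG-FLEX-tdTomato-WPRE or its green counterpart AAV9-CAG-FLEX-eGFP-WPRE. When the mice were 3 to 5 weeks old, 150 to 250 neurons that carried the colour were picked from each. Mice of both sexes were used, the labels call the samples of a genotype independent, and a sample of either genotype was taken at every picking session. A cell is marked when the virus reaches it and its Cre locus is or was in use after the injection, so each library is the mean of a pool that can hold several neuron classes.

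A neuron that fires takes up calcium and has to remove it again. The Atp2b genes encode the PMCA pumps, which spend ATP to export calcium across the plasma membrane and are switched on by calmodulin. Slc8a genes encode the NCX exchangers, which trade sodium for calcium with lower affinity but higher capacity, and SERCA pumps return calcium to the endoplasmic reticulum.

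The libraries held 7419027 to 12153109 counts each and 14437 to 16917 genes with a count. Levels are given as CPM, the counts of a gene brought to a fixed library total, after TMM scaling, which evens out libraries over the bulk of their genes. Several libraries stood apart from their group. Sst replicate 2 and Trpv1 replicates 1 to 3 held counts of pituitary hormone genes, and 5 pituitary markers summed to 454 CPM in Sst replicate 2 and to 1625 to 1720 CPM in those Trpv1 libraries, but to at most 3.87 CPM in the other 4. Xist, an RNA of females, was counted in 6 libraries and was at 0 in Trpv1 replicates 1 and 2, which instead had 825 and 860 counts of Y-linked genes. Sst replicate 4 had 346 CPM over 4 fibroblast markers, against 48.2 to 63.4 CPM in the other Sst libraries. Where leaving out any of these libraries ends a call, that is stated beside the gene.

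Labels were checked against markers of neuron classes. General sensory neuron markers were present throughout, at 1441 to 1725 CPM summed over 7 genes in Sst libraries and 1037 to 1702 CPM in Trpv1 libraries, and 0 of the 7 passed the test. Peptidergic nociceptor markers fell in Sst neurons in 6 of 6 genes, with sums of 42.8 to 122 CPM in Sst libraries and 1893 to 2592 CPM in Trpv1 libraries. Myelinated neuron markers rose in 9 of 10 genes, with sums of 8544 to 14520 CPM in Sst libraries and 5504 to 6579 CPM in Trpv1 libraries. Among 5 markers of the itch neuron class NP3, Il31ra rose and Sst, Nppb, Osmr and Nts did not pass the test. The 5 summed to 1276 to 2606 CPM in Sst libraries and to 817 to 928 CPM in Trpv1 libraries. The 2 markers of the other itch class, NP2, both fell, with sums of 8.49 to 20.4 CPM in Sst libraries and 182 to 439 CPM in Trpv1 libraries.

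The 4 Atp2b genes and the exchanger gene Slc8a3 were called different between the genotypes. Atp2b2 was high in Sst neurons and low in Trpv1 neurons, Atp2b4 was the reverse, Atp2b1 and Atp2b3 were higher in Sst by smaller folds, and Slc8a3 was higher in Sst with groups that overlapped. Of the 7 genes tested, 4 were called higher in Sst and 1 was called lower, by edgeR's quasi-likelihood test with Benjamini-Hochberg adjusted p under 0.05. Of all 11828 genes tested, 3.04% were called higher and 3.31% lower. Values of all 4 Atp2b genes did not overlap between the genotypes, as was so for 11.1% of all genes. The median log2 fold change, Sst over Trpv1, was 0.72 for the 7 and 0.01 for all genes. Since the same contrast chose the family, nothing is read from these counts.

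The pump genes are related in sequence, which bears on how reads are assigned. The 81 coding bases around the aspartate that is phosphorylated in each pump cycle, among the most conserved of these proteins, are shown for 3 of the genes, the pair with the opposite changes and Atp2b1, to show how far they part at the level of a read. Read from GENCODE M21 transcripts on GRCm38, the stretch lies at chr10:98999787-98999867 (plus strand) for Atp2b1, chr6:113789867-113789947 (minus) for Atp2b2 and chr1:133731777-133731857 (minus) for Atp2b4. Capitals mark the 22 positions at which the 3 genes do not all have the same base.
Atp2b1: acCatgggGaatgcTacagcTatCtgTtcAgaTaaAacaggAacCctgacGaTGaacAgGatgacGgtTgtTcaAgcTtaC
Atp2b2: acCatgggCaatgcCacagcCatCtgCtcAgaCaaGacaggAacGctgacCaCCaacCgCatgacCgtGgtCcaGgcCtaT
Atp2b4: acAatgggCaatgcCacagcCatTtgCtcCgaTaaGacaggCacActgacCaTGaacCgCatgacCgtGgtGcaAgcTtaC
Against Atp2b2, the stretch differed at 18 bases in Atp2b1 and 12 in Atp2b4. Over whole transcripts, Atp2b2 and Atp2b3 shared 7 stretches of 50 bases, out of 12727 in Atp2b2 and 4818 in Atp2b3. No other pair among the 8 genes shared any. Genes outside the 8 shared 3.93% of such stretches of Atp2a2, 1.33% of Slc8a1, 1.27% of Atp2b1 and 1.04% of Atp2b4. For each of the other members, the part found in any other gene was at most 0.166%. How reads that match several genes were counted is not given.

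**Figure D1:**
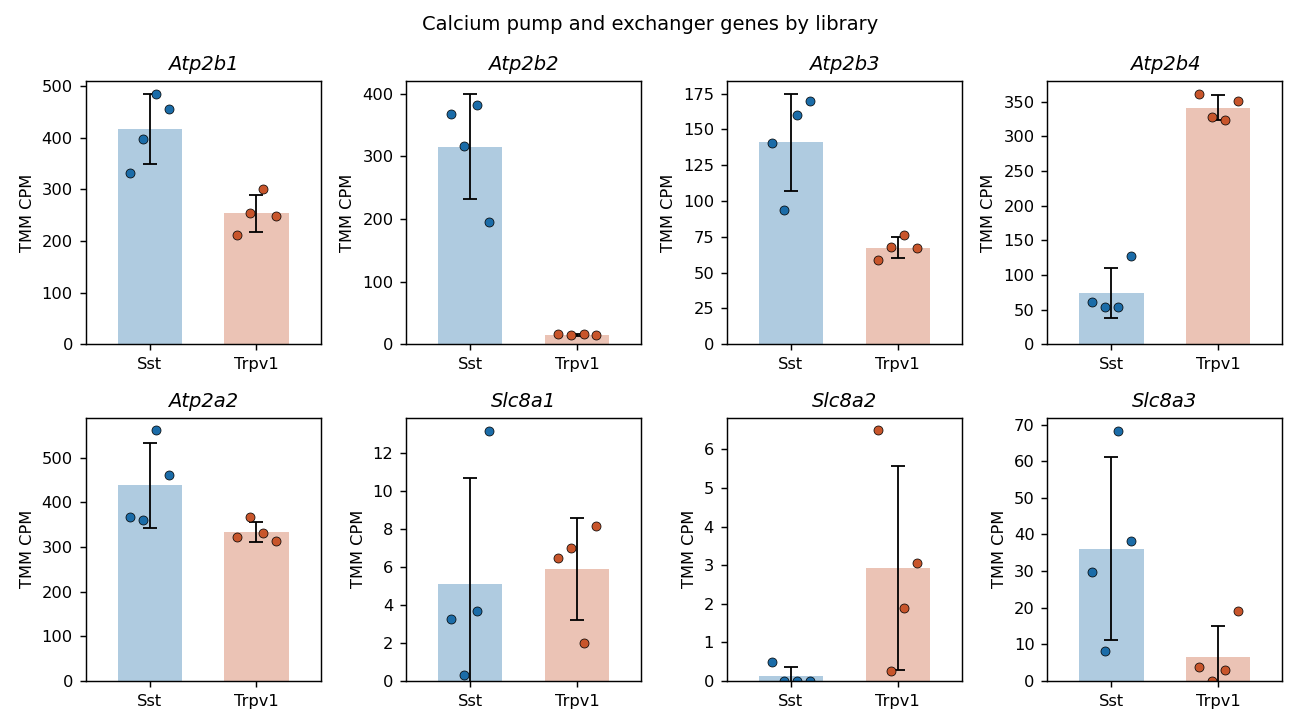
TMM-normalized CPM of the 8 genes (vertical axes, each from 0) in the 4 Sst libraries (left, blue) and the 4 Trpv1 libraries (right, orange). Points are libraries in replicate order, bars are means and lines are 1 SD. Atp2b2 was at 196 CPM or more in every Sst library and at 16.8 CPM or less in every Trpv1 library, while Atp2b4 was at 128 CPM or less in every Sst library and at 323 CPM or more in every Trpv1 library.

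Atp2b2 encodes PMCA2, a pump with a high basal rate that is known from cerebellar Purkinje cells and from the stereocilia of hair cells, where its loss causes deafness in mice. The gene lies at chr6:113743831-114042613 on the minus strand. It had 368, 317, 382 and 196 CPM in Sst libraries 1 to 4, against 16.7, 14.0, 16.8 and 14.0 CPM in Trpv1 libraries 1 to 4. Every Sst library was above every Trpv1 library, the Trpv1 libraries were close together, and Sst replicate 4 was the lowest of its group. The means were 316 ± 84.6 CPM in Sst and 15.4 ± 1.6 CPM in Trpv1 (SD, n = 4 each), from 12945 counts in Sst and 537 in Trpv1. Atp2b2 was 20.6-fold higher in Sst, with a log2 fold change of 4.36 (SE 0.30) and an adjusted p of 1.727e-09 by edgeR's quasi-likelihood test with Benjamini-Hochberg adjustment. It ranked 3 by p-value among all genes tested. It was called in 18 of 18 alternative analyses, with log2 fold changes of 4.28 to 4.54. In pools of cells, fewer cells that use a gene and less RNA of it per cell cannot be told apart, here and for every gene below.

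Atp2b4 encodes PMCA4, a slowly activated pump that many cell types share and that sperm need for motility. It lies at chr1:133699457-133801041 on the minus strand. It had 61.0, 53.9, 54.2 and 128 CPM in Sst libraries 1 to 4, against 362, 328, 323 and 351 CPM in Trpv1 libraries 1 to 4. The groups did not overlap, and Sst replicate 4 lay nearest to the Trpv1 libraries. The means were 74.3 ± 35.96 CPM in Sst and 341 ± 18.3 CPM in Trpv1 (SD, n = 4 each), from 3118 counts in Sst and 11978 in Trpv1. Atp2b4 fell in Sst, with a log2 fold change of −2.19 (SE 0.27) and an adjusted p of 6.731e-06 by edgeR's quasi-likelihood test with Benjamini-Hochberg adjustment, which is 4.59-fold higher in Trpv1. It was called in 17 of 18 alternative analyses. The call was lost over the 4 libraries without pituitary counts, 3 Sst and 1 Trpv1, where the log2 fold change lay within the range of −2.60 to −2.05 over all alternatives and the adjusted p was 0.1201, out of a range of 2.342e-12 to 0.1201.

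Atp2b1 encodes PMCA1, the broadly used housekeeping pump. It lies at chr10:98914406-99026143 on the plus strand. It had 331, 398, 486 and 455 CPM in Sst libraries 1 to 4, against 212, 255, 300.2 and 248 CPM in Trpv1 libraries 1 to 4. The groups did not overlap, but Sst replicate 1 and Trpv1 replicate 3 were close. The means were 417 ± 68.1 CPM in Sst and 254 ± 36.1 CPM in Trpv1 (SD, n = 4 each). Atp2b1 rose in Sst by a log2 fold change of 0.72 (SE 0.20), with an adjusted p of 0.03258 by edgeR's quasi-likelihood test with Benjamini-Hochberg adjustment. The call held in 8 of 18 alternative analyses and was lost when Sst replicate 2, 3 or 4 was left out, with adjusted p of 0.05564, 0.1006 and 0.06171 in edgeR, or Trpv1 replicate 1, 2 or 4, with 0.101, 0.07287 and 0.06342. It was also lost over the 6 libraries with Xist, at 0.2527, and over the 4 without pituitary counts, at 0.4597, out of a range of 0.01362 to 0.4597, while the log2 fold change stayed between 0.62 and 0.82.

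Atp2b3 encodes PMCA3, a neuronal pump, from the X chromosome at chrX:73503086-73571005 on the plus strand. It had 141, 93.5, 159.9 and 170.2 CPM in Sst libraries 1 to 4, against 58.7, 68.1, 76.1 and 67.2 CPM in Trpv1 libraries 1 to 4. Sst replicate 2 came nearest to the Trpv1 libraries, and the groups did not overlap. Trpv1 replicates 1 and 2, which had no Xist, held 58.7 and 68.1 CPM, and Trpv1 replicates 3 and 4, which had Xist, held 76.1 and 67.2 CPM. The means were 141 ± 34.0 CPM in Sst and 67.5 ± 7.09 CPM in Trpv1 (SD, n = 4 each). Atp2b3 rose in Sst, with a log2 fold change of 1.07 (SE 0.27) and an adjusted p of 0.01594 by edgeR's quasi-likelihood test with Benjamini-Hochberg adjustment. The call was lost without Sst replicate 1 at 0.05019, without Sst replicate 3 at 0.05407 and without Trpv1 replicate 1 at 0.05515 in edgeR. It was lost too over the 6 libraries with Xist, at 0.1554, and over the 4 without pituitary counts, at 0.3028, out of a range of 0.001864 to 0.3028, and the log2 fold change ranged from 0.97 to 1.26.

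The make-up of the Atp2b transcripts was then given per library. Each gene's CPM was divided by the length of its exons in kilobases (CPM per kb), so that levels could be set side by side between genes, and expressed as a share of the sum of the 4. These shares were asked for because of their difference and have no test.

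**Figure D2:**
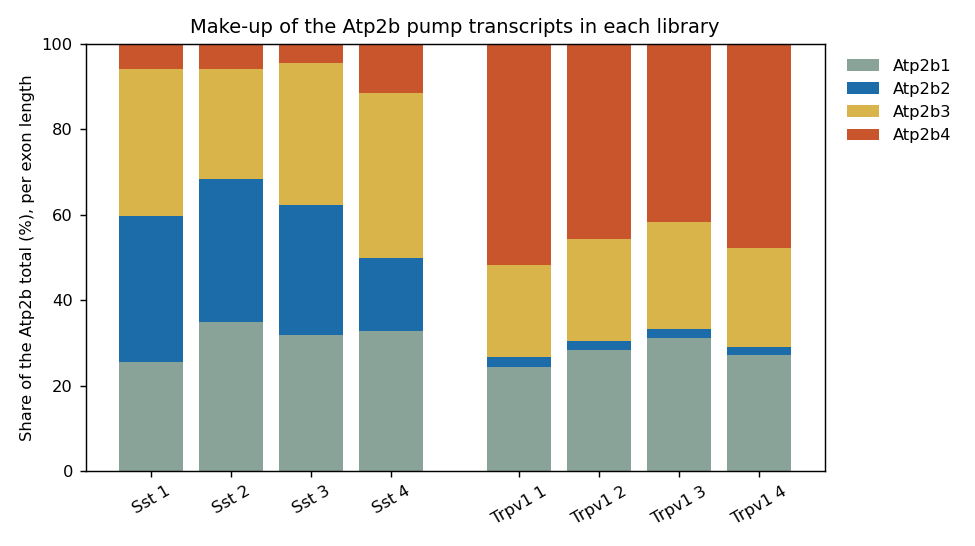
Share of each Atp2b gene (vertical axis, percent of the sum of the 4 genes in CPM per kb of exon) in the 4 Sst libraries (left) and the 4 Trpv1 libraries (right), 1 bar per library. Atp2b2 (blue) took 17.0% to 34.3% in Sst libraries and 1.84% to 2.32% in Trpv1 libraries, and Atp2b4 (red) took 4.44% to 11.5% in Sst libraries and 41.8% to 51.8% in Trpv1 libraries.

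By exon length, Atp2b4 was the smallest share in each Sst library and the largest in each Trpv1 library. With the length of the longest transcript it was still the smallest in each Sst library, but it was the largest only in Trpv1 replicate 1, and Atp2b1 led in Trpv1 replicates 2 to 4, at 44.6%, 47.9% and 43.1%, against 35.02%, 31.4% and 37.1% for Atp2b4. Its share was 5.85%, 5.86%, 4.44% and 11.5% in Sst libraries 1 to 4, against 51.8%, 45.6%, 41.8% and 47.8% in Trpv1 libraries 1 to 4. Atp2b2 took 34.3%, 33.5%, 30.4% and 17.0% in Sst libraries 1 to 4, against 2.32%, 1.89%, 2.11% and 1.84% in Trpv1 libraries 1 to 4. The mean shares were thus 28.8% ± 8.02 in Sst and 2.04% ± 0.221 in Trpv1 for Atp2b2, and 6.90% ± 3.11 in Sst and 46.7% ± 4.21 in Trpv1 for Atp2b4 (SD, n = 4 each). As a ratio within a library, Atp2b2 was 5.86, 5.71, 6.84 and 1.49 times Atp2b4 in Sst libraries 1 to 4. In Trpv1 libraries 1 to 4, Atp2b4 was 22.3, 24.2, 19.8 and 25.9 times Atp2b2. Every library of a genotype was on the same side of 1, and Sst replicate 4 was the most even mixture.

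Atp2b1 had a share of 31.3% ± 3.99 in Sst and 27.8% ± 2.79 in Trpv1 (SD, n = 4 each), and the groups overlapped. Atp2b3 took 34.3%, 25.8%, 33.2% and 38.7% in Sst libraries 1 to 4, against 21.4%, 24.0%, 25.0% and 23.2% in Trpv1 libraries 1 to 4, which did not overlap. With the longest transcript as length, its groups overlapped, at means of 23.1% in Sst and 17.9% in Trpv1. The order moved in both genotypes, because Atp2b1 then led at a mean of 44.7% in Sst and 43.8% in Trpv1.

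The summed Atp2b level was 85.1, 75.1, 99.8 and 91.2 CPM per kb in Sst libraries 1 to 4, against 57.0, 58.8, 63.2 and 60.1 CPM per kb in Trpv1 libraries 1 to 4. Its mean was 87.8 ± 10.4 in Sst and 59.8 ± 2.63 in Trpv1 (SD, n = 4 each), a log2 ratio of 0.55. The groups did not overlap, and the log2 ratio of the sum was smaller in size than the log2 fold changes of Atp2b2 and Atp2b4.

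Start regions of Atp2b2 and Atp2b4 are shown because these genes had the opposite log2 fold changes. They are 300 bases each, from 250 before to 50 after a RefSeq start on GRCm38.p6, at chr6:114042031-114042330 for the most upstream of 3 Atp2b2 starts and at chr1:133753698-133753997 for Atp2b4, both on the minus strand. The Atp2b4 start is an internal one, downstream of the annotated 5′ end of the gene at 133801041, so longer transcripts of Atp2b4 start elsewhere. Capitals mark the GC box, GGGCGG or its reverse complement.
Atp2b2: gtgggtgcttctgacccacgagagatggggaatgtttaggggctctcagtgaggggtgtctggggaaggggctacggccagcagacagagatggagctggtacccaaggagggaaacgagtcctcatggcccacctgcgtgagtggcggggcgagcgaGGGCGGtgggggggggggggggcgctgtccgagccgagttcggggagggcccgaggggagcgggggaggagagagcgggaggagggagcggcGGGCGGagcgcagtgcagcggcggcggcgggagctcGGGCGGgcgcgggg
Atp2b4: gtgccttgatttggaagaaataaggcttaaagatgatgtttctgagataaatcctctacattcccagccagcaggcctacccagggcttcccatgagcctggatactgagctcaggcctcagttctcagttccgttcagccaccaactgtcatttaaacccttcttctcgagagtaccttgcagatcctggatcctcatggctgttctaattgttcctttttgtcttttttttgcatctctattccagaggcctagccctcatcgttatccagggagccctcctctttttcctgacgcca
The Atp2b2 window was 72.7% G or C with 27 CpG and 3 GC boxes, and the Atp2b4 window 47.7% with 4 CpG and 0 GC boxes. Among 32851 promoter windows of this length the medians were 52.7% and 7 CpG, and 35.7% held a GC box on either strand. The other 2 Atp2b2 windows were 58.7% and 54.0% G or C, with 2 and 0 GC boxes, so the starts of that gene also differ among themselves. The TATA box TATAAA (13.6% of windows), the CRE TGACGTCA (1.79%) and the E-box CACGTG (7.15%), searched on both strands and none of them contained in another, were in neither printed window. Windows were matched for 6 of the 8 genes, all but Atp2b3 and Atp2a2, and which start was used in these neurons was not measured.

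Atp2a2, the SERCA2 gene, lies at chr5:122453513-122502225 on the minus strand. It had 368, 359.9, 562 and 462 CPM in Sst libraries 1 to 4, against 322, 366, 332 and 314 CPM in Trpv1 libraries 1 to 4. The groups overlapped, and Sst replicates 3 and 4 were above the rest. The means were 438 ± 94.6 CPM in Sst and 334 ± 23.0 CPM in Trpv1 (SD, n = 4 each), with a log2 fold change of 0.39 (SE 0.20) and an adjusted p of 0.2664 by edgeR's quasi-likelihood test with Benjamini-Hochberg adjustment, so it did not pass the test. It passed in 0 of 18 alternative analyses. Its level per kb was 0.71 to 0.93 times the Atp2b total in Sst libraries and 0.86 to 1.03 times in Trpv1 libraries. In the annotation 83 of its exonic bases lie opposite Gm43361, and since the use of strand in counting is not given, reads from that overlap cannot be assigned.

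As a sum, the 3 sodium-calcium exchanger genes were far less abundant than the Atp2b pump genes. The mean of Slc8a3 alone was near that of the least abundant Atp2b gene of each genotype. By mean CPM per kb it was at 6.78 beside 6.07 for Atp2b4 in Sst, and at 1.21 beside 1.22 for Atp2b2 in Trpv1. This closeness is one of means and not of single libraries. In Trpv1 libraries 1 to 4 Slc8a3 was at 0.695, 0, 0.569 and 3.57 CPM per kb, against 1.11 to 1.33 for Atp2b2. In Sst libraries it ranged from 1.55 to 12.8, against 4.40 to 10.5 for Atp2b4. Per kb of exon, the exchanger genes made up 6.41%, 2.04%, 11.5% and 7.95% of the Atp2b and Slc8a sum in Sst libraries 1 to 4, against 3.84%, 0.711%, 1.61% and 7.09% in Trpv1 libraries 1 to 4, with overlap between the groups.

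Slc8a3 encodes NCX3, an exchanger of neurons and skeletal muscle, at chr12:81197915-81333180 on the minus strand. It had 29.6, 8.25, 68.4 and 38.3 CPM in Sst libraries 1 to 4, against 3.71, 0, 3.03 and 19.0 CPM in Trpv1 libraries 1 to 4. Trpv1 replicate 4 was above Sst replicate 2, so the groups overlapped. The 0 in Trpv1 replicate 2 allows a level of up to 0.382 CPM, that of 3 counts, which like every such limit covers counting error only. The means were 36.1 ± 24.9 CPM in Sst and 6.44 ± 8.54 CPM in Trpv1 (SD, n = 4 each). Slc8a3 rose in Sst with a log2 fold change of 2.43 (SE 0.68) and an adjusted p of 0.03102 by edgeR's quasi-likelihood test with Benjamini-Hochberg adjustment. The call held in 7 of 18 alternative analyses, and DESeq2 gave an adjusted p of 0.2965, out of a range of 0.006108 to 0.5508. It was lost in edgeR without Sst replicate 1, 3 or 4 (0.0561, 0.1467 and 0.05087), without Trpv1 replicate 1, 2 or 3 (0.1006, 0.08971 and 0.1001), over the libraries with Xist (0.2938) and over those without pituitary counts (0.5508), and the log2 fold change was 1.30 without pituitary counts, 1.69 over the libraries with Xist and, without Trpv1 replicate 4, 3.97. With limma voom the log2 fold change was 3.82 and the call was lost, at an adjusted p of 0.09791. The older quasi-likelihood estimates of edgeR lost the call too, at 0.1926.

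Slc8a1 encodes NCX1, the exchanger of heart muscle. It lies at chr17:81373105-81738377 on the minus strand. It had 3.27, 0.326, 3.69 and 13.2 CPM in Sst libraries 1 to 4, against 6.49, 7.001, 2.02 and 8.14 CPM in Trpv1 libraries 1 to 4. The groups overlapped throughout, and Sst replicate 4 was the highest and Sst replicate 2 the lowest of all 8 libraries. The means were 5.12 ± 5.58 CPM in Sst and 5.91 ± 2.68 CPM in Trpv1 (SD, n = 4 each), with a log2 fold change of −0.17 (SE 0.76) and an adjusted p of 0.9274 by edgeR's quasi-likelihood test with Benjamini-Hochberg adjustment. The sign changed without Sst replicate 2 (0.20), without Trpv1 replicate 4 (0.04) and over the 6 libraries with Xist (0.03). Antisense genes lie opposite 296 and 8 of its exonic bases (AC122399.1 and Gm11096).

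Slc8a2 encodes NCX2, an exchanger of brain neurons, at chr7:16129826-16161063 on the plus strand. It had 5, 0, 0 and 0 counts in Sst libraries 1 to 4, against 63, 2, 15 and 29 counts in Trpv1 libraries 1 to 4. In CPM this was 0.496 in Sst replicate 1 and 0.255 to 6.49 in the Trpv1 libraries, and the 3 zeros allow up to 0.325, 0.277 and 0.271 CPM in Sst libraries 2 to 4. Trpv1 replicate 2 was below Sst replicate 1, so the groups overlapped. The gene failed the filter on low counts. Without a filter its adjusted p was 0.1745 by edgeR's quasi-likelihood test with Benjamini-Hochberg adjustment, and the 8 alternatives that kept it gave 0.06909 to 0.5429.

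As shares of the Slc8a sum per kb, Slc8a3 made up 95.4%, 98.9%, 98.5% and 91.1% in Sst libraries 1 to 4, against 30.6%, 0%, 54.9% and 77.9% in Trpv1 libraries 1 to 4. Slc8a2 made up 54.2%, 11.5%, 34.8% and 12.7% in Trpv1 libraries 1 to 4, and Slc8a1 88.5% in Trpv1 replicate 2. The exchanger shares were thus alike among Sst libraries and different from one Trpv1 library to the next. The Slc8a sum was 1.56 to 13.0 CPM per kb in Sst libraries and 0.421 to 4.58 in Trpv1 libraries. Few reads lie behind some Trpv1 shares. Slc8a1, Slc8a2 and Slc8a3 had 55, 2 and 0 counts in Trpv1 replicate 2, and 16, 15 and 24 in Trpv1 replicate 3. How much of the contrast is spread from counting and amplification was not tested.

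Ordered by mean level per kb, Sst neurons had Atp2a2 first at 72.0 ± 15.6 CPM per kb. Atp2b3 at 29.3 ± 7.05, Atp2b1 at 27.4 ± 4.47 and Atp2b2 at 25.0 ± 6.71 followed, and did not differ beyond their spread. Slc8a3 at 6.78 ± 4.67 and Atp2b4 at 6.07 ± 2.94 overlapped as well, above Slc8a1 at 0.272 ± 0.297 and Slc8a2 at 0.0236 ± 0.0471 CPM per kb (SD, n = 4). Trpv1 neurons also had Atp2a2 first, at 54.9 ± 3.78 CPM per kb, followed by Atp2b4 at 27.9 ± 1.5. Atp2b1 at 16.7 ± 2.37 and Atp2b3 at 14.0 ± 1.47 overlapped, as did Atp2b2 at 1.22 ± 0.127 and Slc8a3 at 1.21 ± 1.6, and Slc8a2 at 0.556 ± 0.502 and Slc8a1 at 0.314 ± 0.143 CPM per kb (SD, n = 4). Atp2b4 was in place 6 in Sst and in place 2 in Trpv1, and no other gene moved by more than 2 places. This order holds for exon length, and with the longest transcript Atp2b1 was above Atp2b4 in Trpv1, at 35.6 and 29.1 CPM per kb. In Sst, the longest transcript gave means of 58.5 for Atp2b1, 35.6 for Atp2b2 and 30.4 CPM per kb for Atp2b3. The closeness of these genes in Sst thus holds for exon length only.

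Other genes of calcium handling, which include channels, partners of the pumps and calcium-binding chaperones, were counted in the same fit. Of 37 such genes outside the 8, 30 were tested and 0 were called higher or lower in Sst by edgeR, beside 3.04% higher and 3.31% lower among all genes. Whether their share of calls differs from that of the members or of all genes was not tested. The median log2 fold change was 0.26 over the 30, beside 0.01 over all genes. At an unadjusted p under 0.05 there were 5 with a positive log2 fold change (Calm3, Slc24a2, Slc24a3, Itpr1 and Ryr2), named because they are few and after their values were seen, and 2 with a negative one. DESeq2 called 0 and limma voom with sample weights called 1, lower in Sst. Without Sst replicate 4 edgeR called Slc24a2 and Ryr2 higher (adjusted p 0.03643 and 0.03474), and without Trpv1 replicate 3 Slc24a2 (0.03202).

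**Figure D3:**
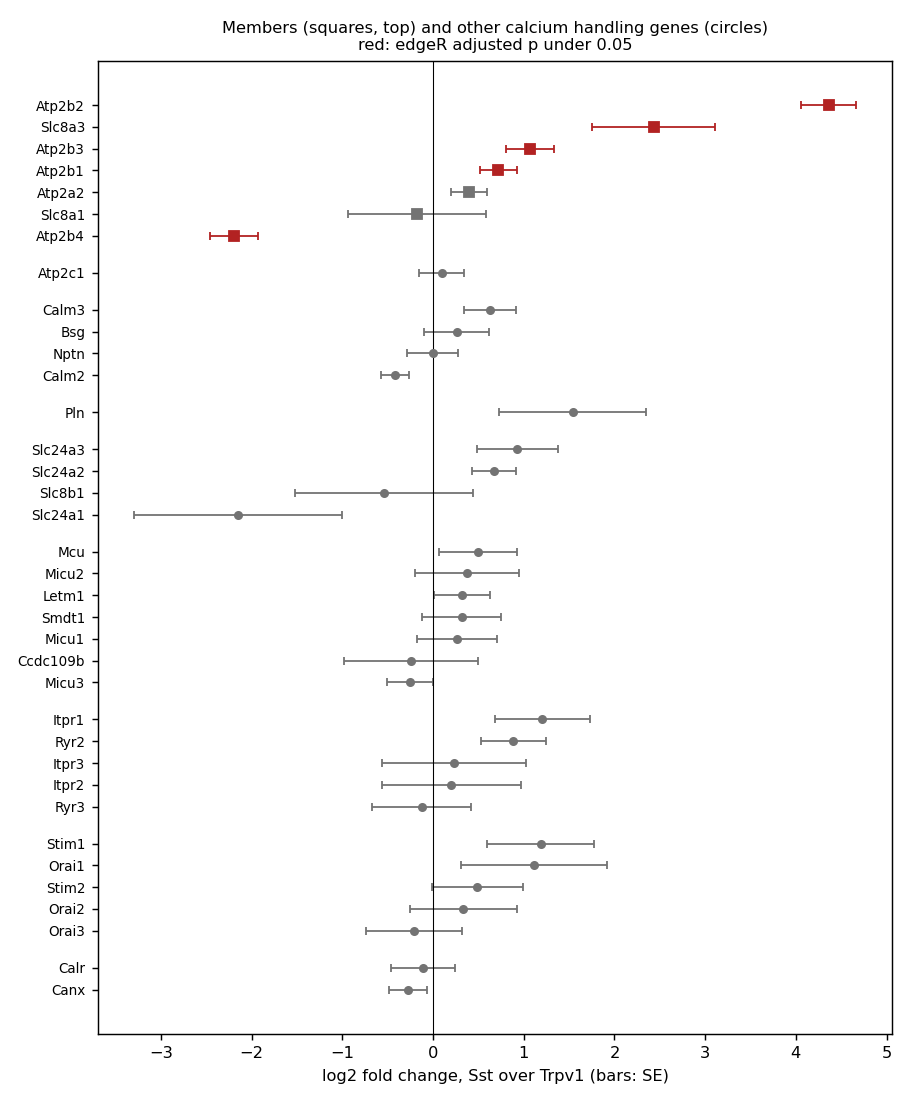
Log2 fold change, Sst over Trpv1 (horizontal axis; lines are 1 SE), for the 7 tested genes of the pump and exchanger set (squares, top) and for 29 other calcium handling genes (circles, grouped by list). Red marks an edgeR adjusted p under 0.05, which 5 of the 7 and 0 of the 29 had.

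Slc24a2, a potassium-dependent sodium-calcium exchanger of neurons, was the most abundant of its list of 6. It had 347, 400.2, 513 and 243 CPM in Sst libraries 1 to 4, against 192, 198, 346 and 209 CPM in Trpv1 libraries 1 to 4. Its log2 fold change was 0.67, with an adjusted p of 0.1054 by edgeR's quasi-likelihood test with Benjamini-Hochberg adjustment, and the groups overlapped. At 30.8 ± 9.22 CPM per kb in Sst and 19.3 ± 6.03 CPM per kb in Trpv1 it was more abundant than the 3 Slc8a genes in either genotype. Among 5 genes of pump partners and calmodulin, 0 passed the test in edgeR. They included Bsg and Nptn, the basigin and neuroplastin subunits of PMCA complexes.

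For stores inside the cell, Atp2c1, a Golgi calcium and manganese pump, was the only organelle pump tested besides Atp2a2. It averaged 157 ± 43.3 CPM in Sst and 147 ± 17.2 CPM in Trpv1 (SD, n = 4 each), while Atp2c2 was at 0 in every library. Among 6 ER release channels, Ryr2, a ryanodine receptor, led at 75.4 ± 31.4 CPM in Sst and 40.9 ± 9.08 CPM in Trpv1 (SD, n = 4 each). Micu3, a regulator of the mitochondrial uniporter, averaged 99.1 ± 13.9 CPM in Sst and 118 ± 21.4 CPM in Trpv1. Stim2, a sensor of ER calcium, averaged 33.2 ± 23.1 CPM in Sst and 23.7 ± 14.1 CPM in Trpv1, and Canx, an ER chaperone that binds calcium, 257 ± 34.8 CPM in Sst and 312 ± 59.1 CPM in Trpv1. Pln, the phospholamban gene whose product restrains SERCA2, was at 5.05 ± 3.63 CPM in Sst and 1.84 ± 1.05 CPM in Trpv1, and Sln, which encodes another SERCA inhibitor, was at 0 in every library. None of these genes passed the test.

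The genes whose pattern over the 8 libraries was most like that of a member were looked up by the Pearson correlation of log2 CPM, as a description. For Atp2b2 these were Fat3 (r = 0.985), an atypical cadherin gene, and Kcnk1 (r = 0.981), a two-pore potassium channel gene. Fat3 had 322 ± 100.3 CPM in Sst and 24.3 ± 7.501 CPM in Trpv1 (SD, n = 4 each). For Atp2b4 they were Cd9 (r = 0.989), a tetraspanin gene, and Trpm3 (r = 0.986), a heat-activated channel of nociceptors. Trpm3 had 37.7 ± 8.45 CPM in Sst and 95.3 ± 8.23 CPM in Trpv1 (SD, n = 4 each). For the others the nearest were Bcat1 and Wipf3 for Atp2b1 (r = 0.961 and 0.957), Frmpd4 and Tesc for Atp2b3 (0.974 and 0.97), Arhgap27 and Slc35a4 for Slc8a3 (0.983 and 0.965), and Cdon and Rere for Slc8a1 (0.947 and 0.939). All points share the split into the 2 genotypes, so such values are high for many pairs of genes that differ between them.

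Sst replicate 4, which had the least Atp2b2 and the most Atp2b4 of its group, was set beside the other Sst libraries for class markers too. Its Atp2b2 level was 196 CPM, against 317 to 382 CPM in the other Sst libraries, and its Atp2b4 level 128 CPM, against 53.9 to 61.0 CPM. It was the lowest Sst library for 7 of 10 myelinated neuron markers, the highest for 1 (Cntnap2, at 178 CPM, against 139 to 149 CPM) and in between for 2 (Ldhb and Spp1). The 7 included Nefh, the heavy neurofilament gene (652 CPM, against 850.2 to 1252 CPM), Ntrk3, the TrkC receptor gene (39.1 CPM, against 75.2 to 81.6 CPM), and Slc17a7, a vesicular glutamate transporter gene (29.8 CPM, against 37.1 to 60.6 CPM). It was the highest for 4 of 5 NP3 markers, which were Il31ra, an itch cytokine receptor gene (606 CPM, against 336 to 461 CPM), Osmr (1566 CPM, against 575 to 826 CPM), Sst (333 CPM, against 77.4 to 195 CPM) and Nppb (62.7 CPM, against 23.2 to 53.6 CPM), while Nts was at 38.2 CPM, against 21.8 to 39.9 CPM. Of 6 peptidergic markers, Sst replicate 4 was the lowest for 3, among them Calca (18.7 CPM, against 19.7 to 57.2 CPM), and the highest for 0. Of 2 NP2 markers it was the lowest for 1 and the highest for 1. It was the highest for 3 of 4 fibroblast markers, among them Col1a1 (128 CPM, against 1.78 to 18.4 CPM) but not Lum. It was also the highest for 3 of 4 satellite glia markers, among them Glul (465 CPM, against 210.2 to 238 CPM) but not Apoe, and for 2 of 5 Schwann cell markers. Among the 7 general sensory neuron markers, Sst replicate 4 was the lowest Sst library for 3 and the highest for 3. The share of all genes for which it was the lowest or the highest was not counted, so nothing is read from these marker counts. Without Sst replicate 4 the log2 fold changes were 4.53 for Atp2b2 and −2.60 for Atp2b4.

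**Figure D4:**
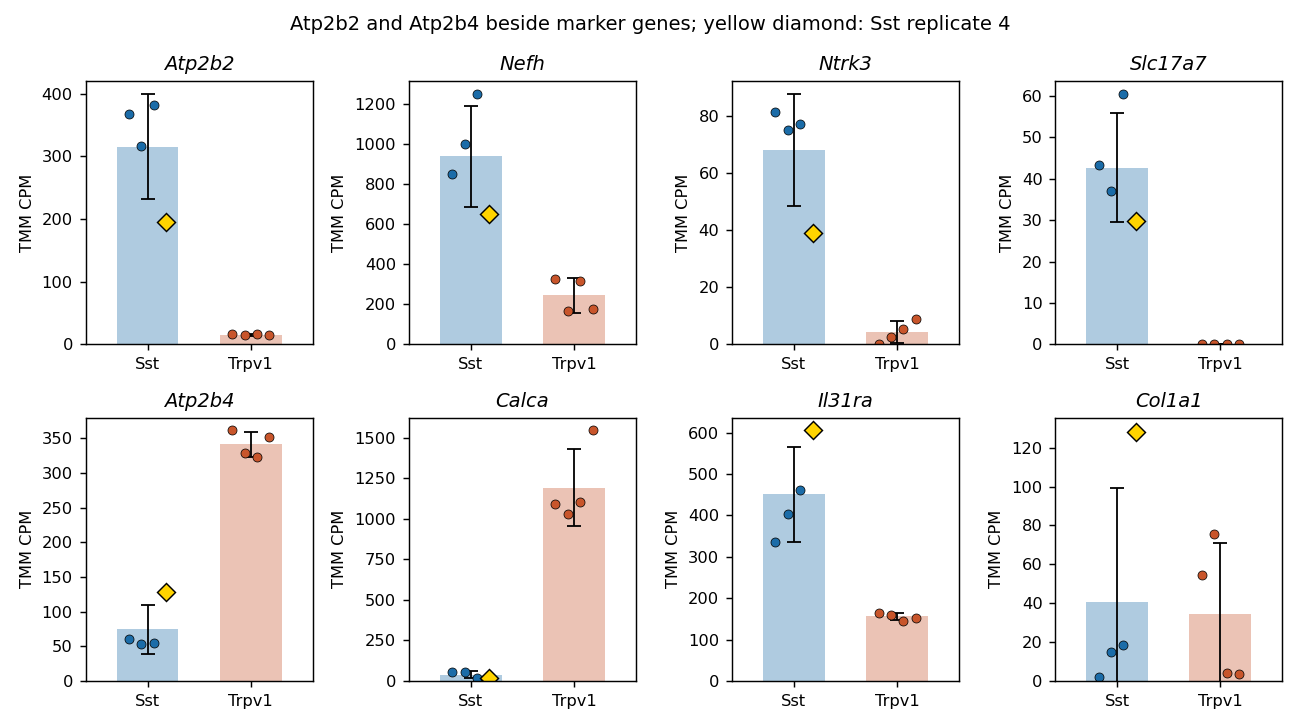
TMM-normalized CPM (vertical axes, each from 0) of Atp2b2, Atp2b4 and 6 marker genes in Sst libraries (left, blue, with replicate 4 as a yellow diamond) and Trpv1 libraries (right, orange). Bars are means and lines are 1 SD; replicate 4 was the lowest Sst library for Atp2b2 at 196 CPM, Nefh at 652 CPM, Ntrk3 at 39.1 CPM and Slc17a7 at 29.8 CPM, and the highest for Atp2b4 at 128 CPM, Il31ra at 606 CPM and Col1a1 at 128 CPM.

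Some class markers differed between the genotypes in the same direction as a pump gene. Nefh averaged 939 CPM in Sst and 245 CPM in Trpv1 and Ntrk3 68.3 CPM in Sst and 4.21 CPM in Trpv1, on the side of Atp2b2. Calca averaged 37.7 CPM in Sst and 1193 CPM in Trpv1 and Adcyap1 2.80 CPM in Sst and 232 CPM in Trpv1, on the side of Atp2b4. Il31ra, which was highest in Sst replicate 4 together with Atp2b4, averaged 452 CPM in Sst and 156 CPM in Trpv1, opposite to Atp2b4. Among non-neuronal lists, 0 of 4 satellite glia markers, 0 of 5 Schwann cell markers and 0 of 4 fibroblast markers passed the test, which does not show that their levels were equal. Of 3 immune cell markers, 0 were tested. Of 5 pituitary markers 3 were tested and 0 passed, with sums of up to 454 CPM in Sst and up to 1720 CPM in Trpv1. Satellite glia markers summed to 336 to 685 CPM in Sst and 241 to 456 CPM in Trpv1, Schwann cell markers to 364 to 653 CPM in Sst and 599 to 807 CPM in Trpv1, and immune cell markers to at most 1.78 CPM in Sst and 23.9 CPM in Trpv1. The part of neuron class composition, of other cells and of the pituitary counts in the values of the pump genes was not tested.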

How the data were processed

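Raw counts per gene symbol, as whole numbers, were deposited by the authors for 8 libraries, and 0 columns were left unused. Per the submitters' processing notes, bcl2fastq 2.17, Trimmomatic 0.33 and featureCounts were used with GRCm38. Not given in the sources used here are the aligner, the annotation, the use of strand and the handling of multi-mapped reads. Per the labels' protocols, PicoPure extraction was followed by Ovation RNA-seq V2 amplification and Nextera XT libraries. Amplification from small pools adds spread, and reads carry no molecular identifiers.

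The counts were fitted by quasi-likelihood in edgeR 4.0.16 under R 4.3.3, with its newer estimates, robust dispersions, TMM scaling and group as the sole term. The edgeR expression filter (minimum count 10) kept 11828 of the 21959 genes with a count. P-values are two-sided, Benjamini-Hochberg adjusted over the 11828 genes, with a threshold of 0.05. The biological coefficient of variation was 69.1%. Exon lengths came from GENCODE M21 and promoter windows from RefSeq GRCm38.p6. The steps were tested on simulated data. Values of 1 calcium handling gene and 1 coding stretch are not reported here.

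Members and lists were chosen with earlier results of these data known. Beyond the members, most calcium lists are named by their most abundant tested gene unless genes were called. Other genes of these lists, such as Bsg, Nptn, Atp2c2 and Sln, are named without such a rule. Likeness is named by the 2 highest correlations among tested genes whose log2 CPM (prior count 2) averaged 3 or more. Alternatives were other size factors and filters, DESeq2 1.42.0, limma 3.58.1 voom with sample weights, a fit without robust dispersions, a replicate block, each library left out, the libraries with Xist and, for shares, counts or the longest transcript. After seeing the data, the libraries without pituitary counts and the older quasi-likelihood estimates of edgeR were added.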

Additional observations from a re-analysis of the deposited data

Results flagged for a closer look

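The highest or lowest library of each genotype was compared with the other 3 in 26 groups of values, and 2 had a gap to the nearest library that was a larger part of the group's range than Dixon's critical value for 4 libraries. Chance alone gives such a gap in about 5% of groups. Atp2b4 was at 128 CPM in Sst replicate 4, with a gap of 0.905 of the range. Slc8a2 was at 0.496 CPM in Sst replicate 1, where the other Sst libraries were at 0, so the gap was the whole range, from 5 counts.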

How the results depend on the processing

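Over the 18 alternatives, Atp2b2 kept its call in all 18, Atp2b4 in 17, Atp2b3 in 13, Atp2b1 in 8 and Slc8a3 in 7, each with its direction, and Atp2a2 and Slc8a1 passed in none. The count of members called higher in Sst, 4, became 2 with limma voom, 1 over the 6 libraries with Xist, 1 over those without pituitary counts and 1 to 3 with 1 library left out. The count called lower, 1, became 0 without pituitary counts, where Trpv1 has 1 library that is assumed to vary like the Sst ones, and where fewer samples were tested. All genes called, 751, became 305 over the libraries with Xist, 493 with the older quasi-likelihood estimates and 452 to 747 with 1 library left out. Among the other calcium genes, 0 to 2 were called higher with 1 library left out, and voom called 1 lower. Slc8a1 reversed to a log2 fold change of 0.034 over the libraries with Xist and ranged from −1.26 to 0.20 with 1 library left out. The share difference of Atp2b3, Sst minus Trpv1, was 9.63 percentage points, 4.85 on counts and 5.15 on the longest transcript. That of Atp2b4 was −39.8, and −31.3 on the longest transcript, and the log2 ratio of the Atp2b total was 0.55 and 0.69; the length used makes these differences. Deviations of same-numbered libraries from their group means correlated at r = 0.01, 0.03, −0.03 and −0.02 over the tested genes. Only 1 of 4 Sst libraries correlated best with its own number. Such values over all genes cannot show whether samples were paired, and no label ties the replicate numbers to picking sessions. With a replicate block, 572 genes were called, and Atp2b1 had a log2 fold change of 0.71 and an adjusted p of 0.06057 in edgeR. Where no cause is given, the cause was not tested. Depth limits Slc8a1 and Slc8a2 most, at 222 and 5 counts over the Sst libraries and 211 and 109 over the Trpv1 libraries.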
